A study of Homo sapiens with 22 samples.

Results

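AP-1 and immediate-early genes were examined in the human lung cancer cell line H1299, here with an shRNA that silences BRCA2 when doxycycline (DOX) is added. The set was chosen by name and held 10 of the 37908 genes in the count table: JUN, JUNB and JUND, FOS, FOSB, FOSL1 and FOSL2, EGR1, IER2 and IER3. No measured value enters that rule, but earlier results of these data were known when the set was chosen. RNA-seq covered 22 libraries in 8 groups, to find how cells with and without BRCA2 responded to accumulated β-catenin. The BRCA2-deficient groups received DOX (2 µg/mL) over 3 days, and the BRCA2-proficient groups received none. Within each background the siRNA was either a control or directed at β-catenin (siβ-catenin, gene CTNNB1). Cultures were or were not exposed to LY2090314, which inhibits glycogen synthase kinase 3 (GSK3i), at 250 nM over 24 h. Those not exposed carry "unt" in their labels, and the paper's figure legends name DMSO as their treatment. Control-siRNA cells without GSK3i are called untreated. All groups shared the same line with its shRNA construct, and DOX was present wherever BRCA2 was depleted, so the effects of DOX and of BRCA2 depletion cannot be told apart. There were 3 libraries per group, or 2 (replicates 2 and 3) in the BRCA2-proficient untreated and siβ-catenin groups. Each library held 18.9 to 29.3 M counts.

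AP-1 is a dimer of a JUN-family protein with another JUN-family protein or a FOS-family protein. The dimers bind the site TGANTCA and drive genes of growth, invasion and wound-type responses. FOS, FOSB, JUN, JUNB, EGR1, IER2 and IER3 are classed as immediate-early genes, because growth factor or stress signals switch on their transcription without new protein synthesis, through the serum response factor at CArG boxes and CREB-type factors at cyclic AMP response elements (CRE). FOSL1, FOSL2 and JUND keep AP-1 active for longer or at rest. JUN protein is a known substrate of GSK3, which marks it after other kinases have acted. That is a mark on protein, which RNA levels do not measure.

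The genes targeted in the design served to check the labels. BRCA2 ran from 71.4 to 225.3 normalised counts in the 12 BRCA2-deficient libraries and from 513.6 to 1111 in the 10 BRCA2-proficient ones. Normalised counts are counts divided by a library size factor. CTNNB1 ran from 976.8 to 2217 after siβ-catenin and from 5206 to 8669 with control siRNA. AXIN2, a feedback target of β-catenin, ran from 1027 to 1747 in the 6 GSK3i libraries without siβ-catenin and from 59.5 to 227.1 in the other 16. A further check used 463 genes lowered by GSK3i in the control-siRNA cells of both backgrounds. Their median log2 difference from untreated cells was -1.10 to -0.96 in BRCA2-deficient cells with GSK3i and siβ-catenin and -0.13 to 0.15 in BRCA2-deficient cells with siβ-catenin alone. The library labelled BRCA2-proficient siβ-catenin replicate 2 was at -1.21, and the library labelled BRCA2-proficient GSK3i with siβ-catenin replicate 2 was at 0.03. These 2 libraries went against their labels for GSK3i, and replicate 3 of the first of these groups was intermediate at -0.45. They kept their labelled groups, and the comparisons of the 10 genes that use them are given with and without them. Keratins 8 and 18 were abundant (KRT8 from 2037 and KRT18 from 5068 normalised counts), as was vimentin (VIM, from 12636). The epithelial markers KRT19, EPCAM and CDH1 stayed at or below 22.2 normalised counts. The blood-cell marker PTPRC and the fibroblast marker LUM stayed at or below 1.57.

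FOSL1 was the most abundant of the 10 genes per length of transcript, and FOSB the least. In counts per 1 M total counts and per kb of exon, the median over the 22 libraries was 196.1 for FOSL1, 124.7 for IER3, 60.6 for JUND, 39.0 for JUN, 27.7 for JUNB, 27.5 for IER2, 14.9 for EGR1, 14.3 for FOSL2, 5.58 for FOS and 0.648 for FOSB. Neighbours in this order overlapped. The range of IER2 (19.5 to 54.5) lay within that of JUNB (14.0 to 77.3), and that of FOSL2 (8.37 to 27.3) within that of EGR1 (1.75 to 63.6). The genes also differed in how steady they were. The highest library was 51.3 times the lowest for FOS, 35.3 times for EGR1, 19 times for FOSB and 5.11 times for JUNB. For the other 6 genes it was from 2.47 to 2.90 times. The lowest raw count was 25, for FOSB, and all 10 genes passed the filter on low counts in each comparison. The plot of levels by library shows this contrast between wide and narrow genes.

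**Figure D1:**
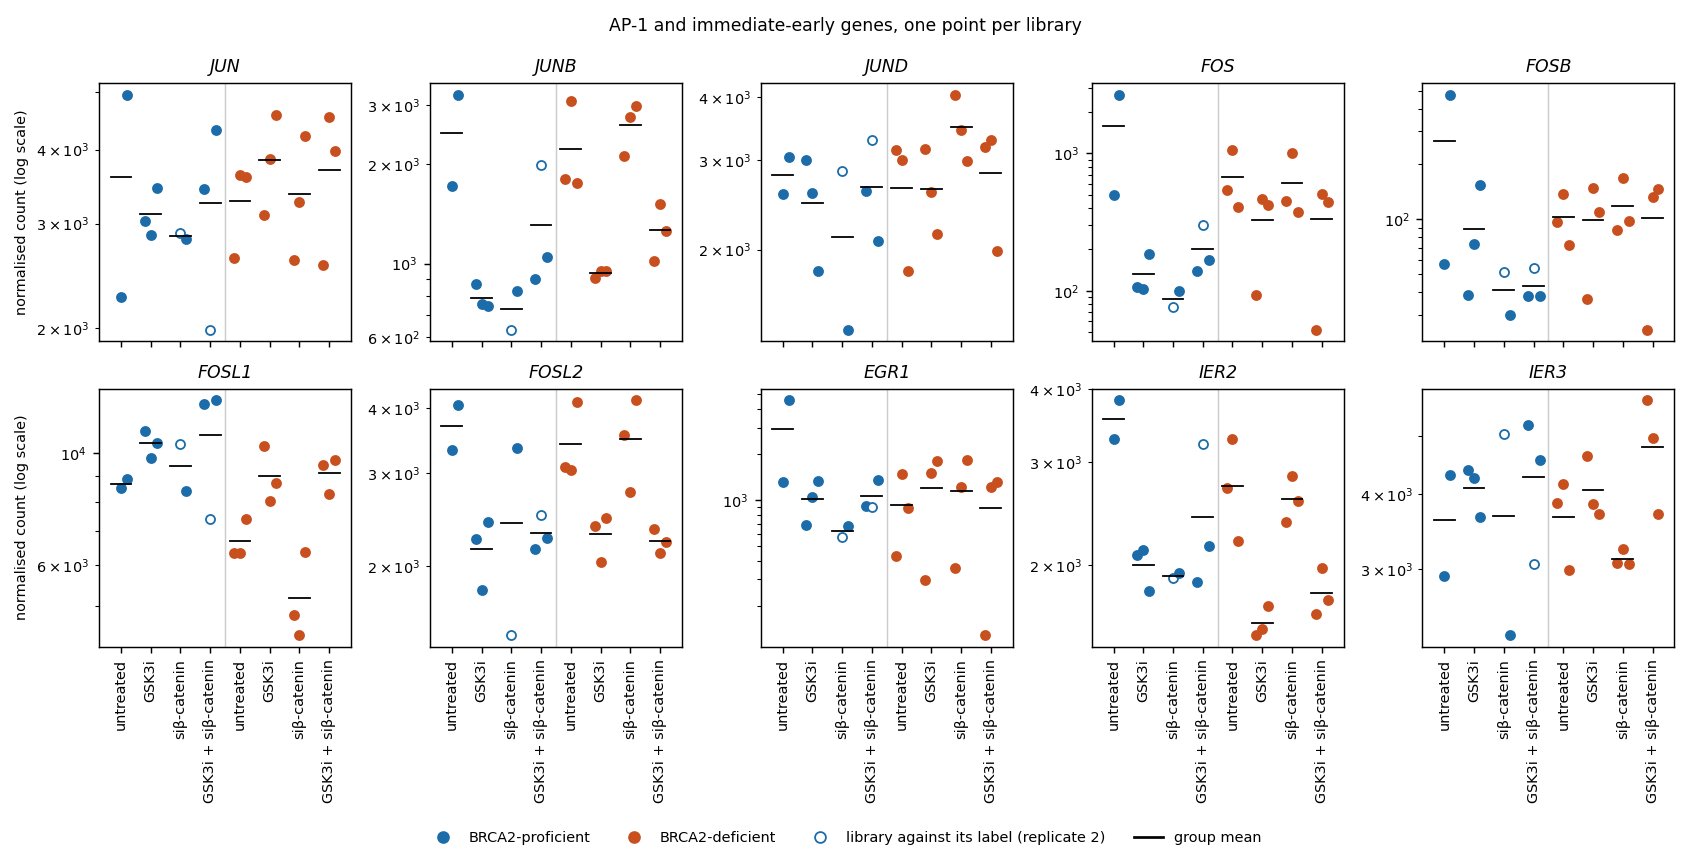
Normalised counts of the 10 genes (log axis) in each library, by group, with BRCA2-proficient groups on the left in blue and BRCA2-deficient groups on the right in orange. Black lines are group means and open circles are the 2 libraries that went against their labels. JUNB, FOSL2 and IER2 are lower with GSK3i, without overlap, with control siRNA in both backgrounds and with siβ-catenin in BRCA2-deficient but not in BRCA2-proficient cells, while FOS, EGR1 and FOSB spread widely within groups.

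The FOS family was made up mostly of FOSL1 transcript. FOSL1 held 76.0 to 95.8% of the family's summed level per kb over the 22 libraries, and 76.0 to 95% over the 20 without the libraries that went against their labels. In untreated BRCA2-deficient cells its share was 83.4% ± 1.97 (SD, n = 3), with 11.2% ± 1.11 for FOSL2, the transcript of FRA-2, and 5.02% ± 2.72 for FOS. With GSK3i the FOSL1 share was 91.4% ± 1.94 and the FOSL2 share 6.15% ± 0.524 (n = 3 each). After siβ-catenin without GSK3i, FOSL1 held 79.4% ± 3.28 and FOSL2 14.1% ± 1.43, and with both treatments 91.7% ± 1.66 and 5.90% ± 0.314. In the JUN family JUND had the largest mean share in each of the 8 groups, 39.3 to 49.3%, but in BRCA2-proficient siβ-catenin cells without the library that went against its label JUN was ahead (40.0% against 36.9%, n = 1). The JUNB share went from 34.2% ± 5.29 to 17.4% ± 0.759 with GSK3i where BRCA2 was depleted. In BRCA2-proficient cells it went from 34.9% ± 3.58 (n = 2) to 16.8% ± 0.801 (n = 3). The JUNB shares did not overlap between the groups with and without GSK3i in either control-siRNA background. No separate test was run on shares, since the genes that form them are tested below.

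**Figure D2:**
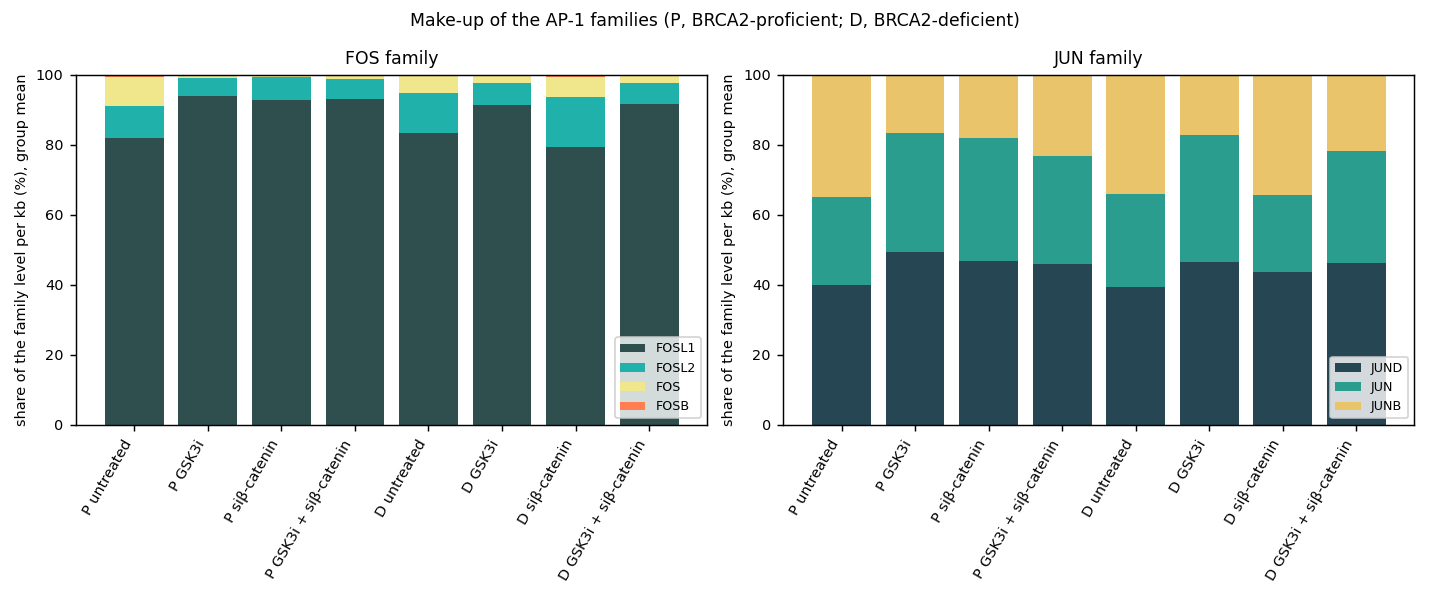
Stacked bars of the mean share (%) of each gene in the summed level per kb of the FOS family (left) and the JUN family (right), for the 4 BRCA2-proficient (P) and the 4 BRCA2-deficient (D) groups. FOSL1 fills most of each FOS-family bar, and the JUNB part is 34.9% in P untreated and 34.2% in D untreated cells against 16.8% and 17.4% with GSK3i.

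The stretch of 250 bases before the transcription start was read for 8 of the 10 genes (RefSeq, GRCh38.p14). FOSL1 and IER3 were not matched. The windows are shown for JUNB, FOSL2 and IER2, whose transcripts fell together with GSK3i, and for FOS and EGR1, which varied most between libraries. Each runs 5′ to 3′ on the strand of its gene, and all 5 lie on the plus strand. Capitals mark the short CRE motif TGACG on either strand (CGTCA when read on the other strand) and, in EGR1, the CArG boxes and the motif TTCNNNGAA.
JUNB promoter window, chr19:12791236-12791485: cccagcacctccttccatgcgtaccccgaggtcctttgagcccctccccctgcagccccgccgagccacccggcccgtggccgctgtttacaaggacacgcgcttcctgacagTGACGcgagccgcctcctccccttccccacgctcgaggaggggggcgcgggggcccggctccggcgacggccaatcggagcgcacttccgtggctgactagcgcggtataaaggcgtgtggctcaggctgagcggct
FOSL2 promoter window, chr2:28392608-28392857: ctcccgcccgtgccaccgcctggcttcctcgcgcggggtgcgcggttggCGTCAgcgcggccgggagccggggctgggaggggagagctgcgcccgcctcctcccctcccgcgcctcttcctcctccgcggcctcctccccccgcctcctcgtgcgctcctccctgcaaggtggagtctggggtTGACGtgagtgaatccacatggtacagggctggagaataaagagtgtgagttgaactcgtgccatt
IER2 promoter window, chr19:13150161-13150410: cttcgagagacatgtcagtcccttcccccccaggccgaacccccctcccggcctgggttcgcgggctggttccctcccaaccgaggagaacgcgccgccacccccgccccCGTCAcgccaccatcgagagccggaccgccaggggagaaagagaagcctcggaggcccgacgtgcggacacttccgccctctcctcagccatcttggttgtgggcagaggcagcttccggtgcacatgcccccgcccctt
FOS promoter window, chr14:75278578-75278827: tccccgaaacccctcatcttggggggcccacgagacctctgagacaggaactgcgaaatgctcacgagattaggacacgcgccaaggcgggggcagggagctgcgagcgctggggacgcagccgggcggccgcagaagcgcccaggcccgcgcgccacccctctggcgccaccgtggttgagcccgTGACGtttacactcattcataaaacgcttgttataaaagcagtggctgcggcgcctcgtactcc
EGR1 promoter window, chr5:138465229-138465478: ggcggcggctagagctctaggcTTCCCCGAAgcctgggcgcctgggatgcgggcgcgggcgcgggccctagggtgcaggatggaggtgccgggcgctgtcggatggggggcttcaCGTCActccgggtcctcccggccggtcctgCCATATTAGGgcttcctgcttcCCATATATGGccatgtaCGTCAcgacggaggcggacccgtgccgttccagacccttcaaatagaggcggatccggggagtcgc
The motif TGACG was in the windows of 8 of the 8 genes read, against 21.2% of 35114 promoter windows of the same length. It was chosen after the sequences were seen. The full CRE, TGACGTCA, overlaps it and was found in JUND alone among the 8 genes (1.65% of all windows). EGR1 held 2 CArG boxes, starting 105 and 83 bases before the start site, a motif in 1.16% of all windows. EGR1 also held 1 match to TTCNNNGAA (6.57%), a motif of STAT factors. No match to the AP-1 site TGANTCA (6.57% of all windows) or to CTTTGAT, a motif of the TCF/LEF partners of β-catenin (2.26%), was found in these letters on either strand. A match is a description of the sequence and not a measured binding site. Sequence farther than 250 bases before the start was not read, so a window without a CArG box does not show that the gene lacks one.

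GSK3i lowered JUNB, FOSL2 and IER2 in both backgrounds, by 1.49 to 3.17 times, and FOS as well in BRCA2-proficient cells. Of the 10 genes, 4 were called lower and 0 higher in BRCA2-proficient cells. Over all genes tested there, 26.1% were called, with 14.2% lower and 11.8% higher. In BRCA2-deficient cells 3 were called lower and 0 higher, against 25.4% of all genes called, with 13.8% lower and 11.6% higher. Calls needed a DESeq2 adjusted p below 0.05 together with a log2 change of more than 0.5 either way. The median log2 fold change of the 10 genes was -0.82 with BRCA2 present and -0.03 with BRCA2 depleted, beside -0.00 and 0.02 over all genes tested. In such bulk cultures, fewer cells of a kind and less RNA per cell cannot be told apart.

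JUNB (ENSG00000171223, chromosome 19, 12902300 to 12904129 on GRCh37, protein-coding) encodes a JUN-family partner that is a weaker activator than JUN and is itself an immediate-early gene. In BRCA2-proficient cells it had 1712 and 3228 normalised counts when untreated and 865.3, 754.4 and 745.3 with GSK3i. The groups did not overlap, and JUNB fell by 1.66 ± 0.22 (log2, SE), with an adjusted p of 6.36e-13 in DESeq2. In BRCA2-deficient cells it had 1797, 3102 and 1752 when untreated and 903.8, 947.0 and 950.4 with GSK3i. Again the groups did not overlap, and the log2 fold change was -1.25 ± 0.24 (adjusted p = 4.38e-06). JUNB was called under each of the 11 and 12 alternatives run for these comparisons. Among the 3 libraries with GSK3i in each background its spread was narrow, with an SD of 66.8 and 26.0 normalised counts. HOOK2 lies over JUNB on the opposite strand, and the strand setting of the counting is not stated, so JUNB is read with that limit. HOOK2 itself had log2 differences of -0.23 ± 0.19 and 0.07 ± 0.18 with GSK3i and was not called.

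JUN (ENSG00000177606, chromosome 1, 59242517 to 59249720), the founding AP-1 subunit, was not called in any of the 12 comparisons of 2 groups or the 4 interaction tests. In BRCA2-deficient cells it had 2624, 3618 and 3596 normalised counts when untreated and 3107, 3862 and 4575 with GSK3i. The groups overlapped, with a log2 difference of 0.23 ± 0.21 (95% interval of the difference -0.18 to 0.64). In BRCA2-proficient cells the untreated libraries were at 2252 and 4949 and the GSK3i libraries at 3034, 2868 and 3446. The untreated pair was farther apart than the 3 treated libraries, and the difference was -0.22 ± 0.41. Without untreated replicate 2 it was -0.68 and called (adjusted p = 0.00465), and without untreated replicate 3 it was 0.45 (adjusted p = 0.0904), so even its sign depended on 1 library. JUND (ENSG00000130522, chromosome 19, 18390504 to 18392432), the JUN-family member expressed at rest, had log2 differences of -0.20 ± 0.19 and -0.01 ± 0.25 with GSK3i and was not called.

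FOSL2 (ENSG00000075426, chromosome 2, 28615315 to 28640184) encodes FRA-2, a FOS-family protein without the strong activation domain of FOS. It had 3326 and 4052 normalised counts in untreated BRCA2-proficient cells and 2251, 1800 and 2420 with GSK3i. The groups did not overlap, and FOSL2 fell by 0.79 ± 0.16 on the log2 scale (adjusted p = 7.41e-06). In BRCA2-deficient cells it had 3083, 3046 and 4112 when untreated and 2380, 2036 and 2467 with GSK3i, also without overlap. The log2 fold change was -0.57 ± 0.18 (adjusted p = 0.0094). This call was close to the thresholds. Without untreated replicate 3 the value was -0.42 (adjusted p = 0.0622) and without GSK3i replicate 2 it was -0.49 (adjusted p = 0.11).

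FOSL1 (ENSG00000175592, chromosome 11, 65659520 to 65668044) encodes FRA-1, the FOS-family protein most often linked to invasive carcinoma cells. Its log2 differences with GSK3i were above 0, where those of FOSL2 were below. In BRCA2-deficient cells FOSL1 had 6345, 6350 and 7398 normalised counts when untreated and 10304, 8040 and 8726 with GSK3i. The groups did not overlap, but the log2 difference of 0.43 ± 0.16 (adjusted p = 0.0336) was under the size criterion. It reached 0.51 and was called without untreated replicate 3 or without GSK3i replicate 2. In BRCA2-proficient cells it had 8520 and 8879 when untreated and 11062, 9790 and 10461 with GSK3i, a difference of 0.25 ± 0.12 (adjusted p = 0.0996).

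FOS (ENSG00000170345, chromosome 14, 75745529 to 75748933), the best known immediate-early AP-1 subunit, had 496.9 and 2671 normalised counts in the untreated BRCA2-proficient libraries. With GSK3i it had 106.0, 103.5 and 184.9, below both untreated libraries. The log2 fold change was -3.61 ± 0.88 (adjusted p = 0.000313), and its size rested on untreated replicate 3. Without that library it was -1.93 (adjusted p = 4.08e-06). In BRCA2-deficient cells FOS had 541.5, 1061 and 407.3 when untreated and 92.8, 462.5 and 420.2 with GSK3i. The groups overlapped, and the difference of -1.04 ± 0.75 (adjusted p = 0.313) was not called. FOSB (ENSG00000125740, chromosome 19, 45971253 to 45978437), the FOS paralogue of lowest level here, had log2 differences of -1.61 ± 1.17 and -0.05 ± 0.45, neither of them called, and the first was 0.62 without untreated replicate 3. ERCC1 lies over FOSB on the opposite strand at 2879 to 5594 normalised counts, against at most 474.9 for FOSB, so FOSB is uncertain in each comparison.

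IER2 (ENSG00000160888, chromosome 19, 13261225 to 13265725), a nuclear protein gene switched on early by growth signals, was at 3291 and 3829 normalised counts in untreated BRCA2-proficient cells. With GSK3i it was at 2079, 2121 and 1802, without overlap. It fell by 0.85 ± 0.14 on the log2 scale (adjusted p = 4.57e-08). In BRCA2-deficient cells IER2 was at 2706, 3283 and 2195 when untreated and at 1516, 1552 and 1701 with GSK3i, again without overlap, with a log2 fold change of -0.78 ± 0.19 (adjusted p = 0.000338). IER2 was called under each alternative run for both comparisons. IER3 (ENSG00000137331, chromosome 6, 30710976 to 30712325), a stress-induced gene linked to cell survival, had differences of 0.16 ± 0.17 and 0.15 ± 0.19 and was not called. EGR1 (ENSG00000120738, chromosome 5, 137801168 to 137804992), a zinc-finger factor induced by growth signals, was at 1318 and 4555 in untreated BRCA2-proficient cells and at 683.7, 1046 and 1331 with GSK3i. These groups overlapped, and the log2 difference of -1.54 ± 0.68 (adjusted p = 0.0654) was not called by DESeq2, while edgeR called it (-1.55, adjusted p = 0.0144). Without untreated replicate 2 it was -2.17 (adjusted p = 8.95e-12), and without untreated replicate 3 it was -0.38 (adjusted p = 0.408).

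**Figure D3:**
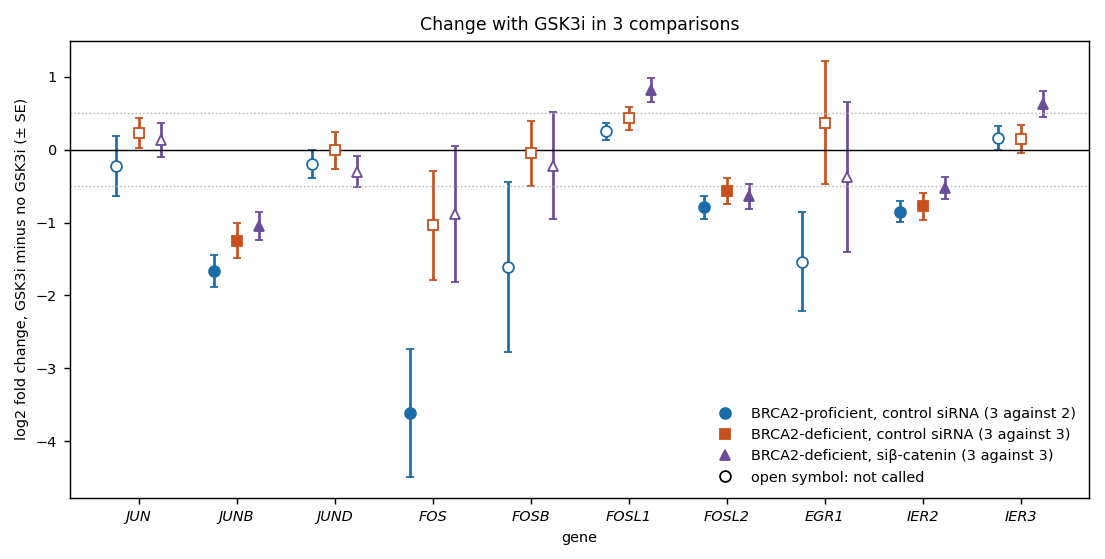
Log2 fold change with GSK3i (points, bars ± SE) of the 10 genes in BRCA2-proficient cells, BRCA2-deficient cells and BRCA2-deficient cells after siβ-catenin. Filled symbols are called genes and dotted lines mark the size criterion of 0.5. JUNB, FOSL2 and IER2 are filled and below 0 in the 3 comparisons.

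Whether the response to GSK3i differed between backgrounds was tested as an interaction in a single model over the 8 groups. None of the 10 genes was called by DESeq2 (1 at an unadjusted p under 0.05), and none by edgeR (1 at an unadjusted p under 0.05). Among the 18409 genes tested DESeq2 called 0.00543% and edgeR called 0. The interaction was 2.55 ± 1.15 for FOS (95% interval 0.29 to 4.80) and 0.05 ± 0.27 for IER2 (-0.48 to 0.58), both on the log2 scale. For JUNB it was 0.40 ± 0.42 (-0.43 to 1.23) and for FOSL2 0.20 ± 0.34 (-0.47 to 0.86). The call of FOS in BRCA2-proficient cells alone is therefore not shown to be a difference between backgrounds.

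BRCA2-deficient cells transfected with siβ-catenin gave 6 further libraries in which GSK3i could be examined again. They were not an independent repeat, since same-numbered libraries with and without siβ-catenin deviated together from their group means. Those correlations were 0.56 to 0.87 with GSK3i and 0.18 to 0.53 without it. In these 6 libraries JUNB, FOSL2 and IER2 were again lower with GSK3i, and FOSL1 and IER3 were higher. Of the 10 genes 3 were called lower and 2 higher, against 11.5% and 8.56% of all genes (20.1% called in all). JUNB had 2118, 2777 and 2980 normalised counts without GSK3i and 1021, 1513 and 1255 with it. The groups did not overlap, with a log2 fold change of -1.05 ± 0.19 (adjusted p = 1.04e-06). FOSL1 had 4793, 4374 and 6385 without GSK3i and 9480, 8300 and 9661 with it, a rise of 0.82 ± 0.17 (adjusted p = 4.72e-05), and the groups stood far apart. IER3 had 3065, 3233 and 3054 without GSK3i and 5735, 4965 and 3700 with it, a rise of 0.63 ± 0.18 (adjusted p = 0.00377). FOSL2 went from 3488 ± 688.4 to 2230 ± 121.1 (SD, n = 3 each; -0.64 ± 0.17, adjusted p = 0.00219). IER2 went from 2594 ± 240.0 to 1788 ± 169.4 (-0.53 ± 0.15, adjusted p = 0.0027). IER2 was at -0.49 and IER3 at 0.47, both under the size criterion, without replicate 1 of the combined treatment. IER2 was at -0.46 without siβ-catenin replicate 2 and FOSL2 at -0.50 without siβ-catenin replicate 3, again under the criterion. In a single model over the 8 groups the adjusted p of IER3 was 0.0506.

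The response to GSK3i with and without siβ-catenin was compared directly in BRCA2-deficient cells. DESeq2 and edgeR called none of the 10 genes, each with 0 at an unadjusted p under 0.05. Of the 18409 genes tested DESeq2 called 0.282% and edgeR called 21. The interaction was 0.20 ± 0.40 for JUNB (95% interval -0.58 to 0.97), 0.39 ± 0.26 for FOSL1 (-0.12 to 0.91) and 0.48 ± 0.35 for IER3 (-0.21 to 1.16). The JUNB interval reached 0.97, so this test does not show that the responses were alike. The call of FOSL1 and IER3 after siβ-catenin and not with control siRNA is likewise not shown to be a difference.

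With GSK3i present and no replicate block in the fit, siβ-catenin called none of the 10 genes in either background. Over all genes DESeq2 called 5.10% with BRCA2 present and 5.52% with BRCA2 depleted, and 2 and 1 of the 10 genes had an unadjusted p under 0.05. With edgeR none was called and 1 in each background had an unadjusted p under 0.05. Over all genes edgeR called 183 of 16393 with BRCA2 present and 267 of 17025 with BRCA2 depleted. In the DESeq2 fits without the block JUNB was the nearest to a call in both backgrounds. It had 895.3, 1978 and 1044 normalised counts with both treatments in BRCA2-proficient cells, against the 865.3, 754.4 and 745.3 with GSK3i alone, and did not overlap. The log2 difference was 0.76 ± 0.28 (adjusted p = 0.0789). With the replicate number as a block it was 0.67 and called (adjusted p = 0.0402). The value rested on the library of 1978 counts, replicate 2, which went against its label, and without it the difference was 0.32 (adjusted p = 0.219). Without replicate 1 or 3 of that group it was 0.97 or 0.90 and called (adjusted p = 0.0162 and 0.0414). In BRCA2-deficient cells, where no library went against its label, JUNB had 1021, 1513 and 1255 against 903.8, 947.0 and 950.4, again without overlap. The difference was 0.43 ± 0.18 (adjusted p = 0.157), and it was 0.57 (adjusted p = 0.0293) without replicate 1 of the combined treatment. With the replicate block in DESeq2, EGR1 was called there (-0.60, adjusted p = 0.000222) and JUNB was not. The interaction of siβ-catenin under GSK3i with BRCA2 status was called for none of the 10 genes by DESeq2 or edgeR. Each method had 0 of them at an unadjusted p under 0.05 and called 0 of the 18409 genes tested. Without the library that went against its label DESeq2 again called none, and JUNB was at 0.14 in place of -0.29.

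Without GSK3i, siβ-catenin called none of the 10 genes in BRCA2-deficient cells with DESeq2, which called 2.03% of all genes. With edgeR none of the 10 genes was called, and 0 of the 17324 genes tested. Each method had 1 of the 10 genes at an unadjusted p under 0.05. JUNB had 2118, 2777 and 2980 normalised counts after siβ-catenin, within the 1752 to 3102 of untreated cells. In BRCA2-proficient cells 3 of the 10 genes were called lower, against 1.96% of all genes called lower, 1.01% called higher and 2.97% called in all. JUNB had 631.4 and 825.5 there (-1.77 ± 0.31, adjusted p = 4.15e-06), FOS 76.0 and 98.9 (-4.19 ± 1.09, adjusted p = 0.00871) and IER2 1896 and 1938 (-0.90 ± 0.18, adjusted p = 0.000186). The first value of each pair is the library labelled replicate 2, which went against its label. Without it a single siβ-catenin library was left, assumed to vary like the untreated pair, and JUNB was at -1.58 (adjusted p = 0.314), FOS at -4.00 (adjusted p = 0.213) and IER2 at -0.87 (adjusted p = 9.58e-05). JUND was then called at -1.01 (adjusted p = 1.12e-05). The JUNB call was also lost without siβ-catenin replicate 3 (-1.98, adjusted p = 0.0601) or untreated replicate 3 (-1.23, adjusted p = 0.303), the FOS call without siβ-catenin replicate 3 (-4.39, adjusted p = 0.0585) and the IER2 call without untreated replicate 2 or 3 (-1.01 and -0.78). FOS was at -2.50 (adjusted p = 0.000996) without untreated replicate 3. Without untreated replicate 2, EGR1 (-2.88) and FOSB (-3.55) were called. Without siβ-catenin replicate 3, FOSL2 was (-1.33). With edgeR none of the 10 genes was called in this comparison, and 5 had an unadjusted p under 0.05. But edgeR called only 1 of the 17654 genes tested here, so its lack of calls says little about the 10 genes. With the replicate block EGR1 was called as well (-1.99, adjusted p = 1.36e-06).

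**Figure D4:**
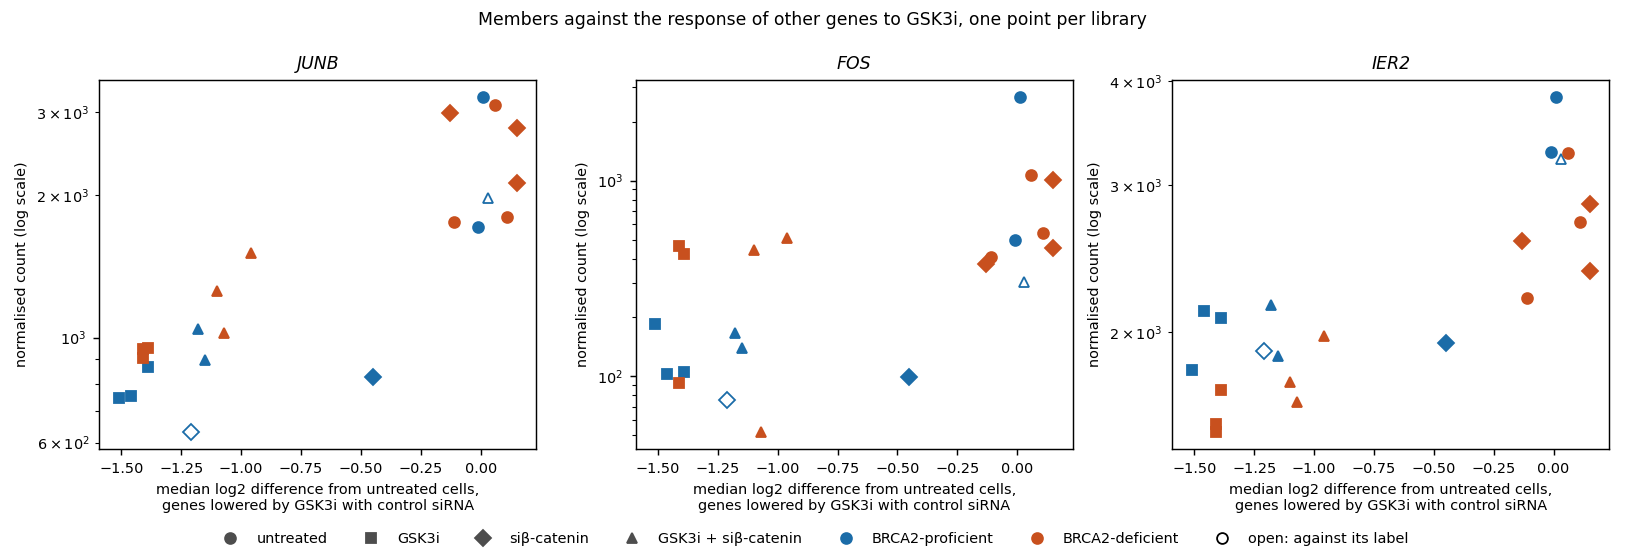
Normalised counts (log axis) of JUNB, FOS and IER2 in each library against the median log2 difference from untreated cells of the 463 genes lowered by GSK3i with control siRNA. JUNB is itself among the 463 genes. Symbols give the treatment, colours the BRCA2 status, and open symbols the 2 libraries that went against their labels. The open diamond, labelled siβ-catenin, sits at -1.21 among the libraries with GSK3i, and the open triangle, labelled GSK3i with siβ-catenin, at 0.03 among those without it.

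The order of JUNB levels over the 8 groups shows what rests on these libraries. From the highest, the group means were 2625 ± 450.7 in BRCA2-deficient siβ-catenin cells, 2470 ± 1072 in BRCA2-proficient untreated cells and 2217 ± 766.8 in BRCA2-deficient untreated cells. These 3 groups without GSK3i overlapped. Next came the groups with both treatments, at 1306 ± 586.7 (BRCA2-proficient, or 969.6 ± 105.1, n = 2, without the library that went against its label) and 1263 ± 246.2 (BRCA2-deficient), which also overlapped. The lowest were GSK3i alone, at 933.7 ± 26.0 (BRCA2-deficient) and 788.3 ± 66.8 (BRCA2-proficient), and the BRCA2-proficient siβ-catenin group at 728.4 ± 137.2 (n = 2), where 1 library went against its label and the other had 825.5. As the plot against the GSK3i-lowered genes shows, JUNB was at most 1513 normalised counts in the 12 libraries whose GSK3i-lowered genes were at -0.96 or less, and at least 1712 in the 9 libraries at -0.13 or more. The remaining library, at -0.45, had 825.5. JUNB is itself among these GSK3i-lowered genes, which were picked with the control-siRNA libraries. Its lower level with GSK3i in those libraries was therefore part of the choice.

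In BRCA2-proficient cells GSK3i after siβ-catenin called none of the 10 genes (3 at an unadjusted p under 0.05) and 0.0529% of all genes with DESeq2. Here edgeR called none of the 10 genes (3 at an unadjusted p under 0.05) and 0 of the 17010 genes tested. Each of the groups compared held a library that went against its label. With both of these left out, 2 libraries were compared with 1. The log2 differences then included 1.08 for IER3, 0.76 for JUND, 0.59 for FOSL1 and -0.60 for FOSL2. Calls are not counted for that fit, since the share over all genes is not given for it. The lone siβ-catenin library, replicate 3, was then assumed to vary like the other group, and it was the one at -0.45. JUNB was at 0.24 and IER2 at 0.06 in that fit. The response to GSK3i differed between siβ-catenin and control siRNA for JUNB, FOS and IER2, all 3 called higher in the interaction test (2.49 ± 0.45, 4.80 ± 1.22 and 1.17 ± 0.28), against 6.22% of all genes called higher, 5.45% called lower and 11.7% called in all. Without the 2 libraries that went against their labels, JUNB was at 1.88 (adjusted p = 0.00363) and IER2 at 0.89 (adjusted p = 0.035), while FOS was not called (4.22, adjusted p = 0.104).

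BRCA2 depletion called none of the 10 genes in untreated cells (6.91% of all genes), under GSK3i (6.81%) or under GSK3i with siβ-catenin (7.74%), with DESeq2 or edgeR. At an unadjusted p under 0.05 there were 3, 1 and 2 of the 10 genes with DESeq2 and 2, 2 and 0 with edgeR. Over all genes edgeR called 326 of 17157, 645 of 16336 and 483 of 17046. In untreated cells EGR1 had the largest difference, at -1.67 ± 0.85 (adjusted p = 0.237), followed by FOSB (-1.41 ± 1.03) and FOS (-1.27 ± 0.92). The BRCA2-proficient libraries behind these values were far apart. Replicate 2 had 1318 normalised counts of EGR1, 496.9 of FOS and 56.9 of FOSB, and replicate 3 had 4555, 2671 and 474.9. Without replicate 2, FOS was at -2.03 (adjusted p = 0.000664) and FOSB at -2.25 (adjusted p = 3.83e-05), and without replicate 3, EGR1 was at -0.52, FOSB at 0.81 and FOS at 0.40, so the order and 2 of the 3 signs rested on that library. FOSL1 had 6345 to 7398 normalised counts without BRCA2 and 8520 and 8879 with it, without overlap, and its difference of -0.40 ± 0.16 (adjusted p = 0.108) was not called. Under GSK3i, FOS was at 1.76 (adjusted p = 1.07e-09) and EGR1 at 0.72 (adjusted p = 0.0235) once BRCA2-deficient replicate 1 was left out. Under both treatments, FOS was at 1.22 (adjusted p = 0.00895) and FOSB at 1.67 (adjusted p = 5.2e-05) without BRCA2-deficient replicate 1. Without the BRCA2-proficient library that went against its label, none of the 10 genes was called under both treatments with DESeq2 either, and JUNB was at 0.37 in place of -0.05.

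After siβ-catenin alone, 4 of the 10 genes were called higher and 1 lower with BRCA2 depletion, against 13.6% and 13.8% of all genes (27.4% called). JUNB was higher by 1.83 ± 0.22 (adjusted p = 2.21e-14), FOS by 2.78 ± 0.39 (adjusted p = 1.07e-10), FOSB by 1.50 ± 0.41 (adjusted p = 0.00162) and JUND by 0.69 ± 0.29 (adjusted p = 0.0486), while FOSL1 was lower (-0.88 ± 0.22, adjusted p = 0.000404). The BRCA2-proficient side of this comparison was the library that went against its label and the intermediate one. Without the former, which left 1 BRCA2-proficient library, JUNB was at 1.64 and FOS at 2.59. Without the intermediate library, replicate 3, JUND (0.26) and FOSB (1.15) were not called, while FOSL2 (1.21) and IER3 (-0.72) were. JUND was not called without BRCA2-deficient replicate 1 (0.58) or 2 (0.70), and FOSB not without replicate 2 (1.16). EGR1 was called without BRCA2-deficient replicate 1 (1.28). In a single model over the 8 groups neither JUND nor FOSB was called. With edgeR 4 of the 10 genes were called, against 4643 of the 17813 genes tested, and JUND was not (0.72, adjusted p = 0.069). With the replicate block JUND was not called (0.67, adjusted p = 0.105) and EGR1 was (1.26, adjusted p = 0.000334). HOOK2, on the opposite strand to JUNB, was also called (0.75, adjusted p = 0.000767).

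The spread of EGR1, FOS and FOSB followed the replicate number in BRCA2-deficient cells. EGR1 was lowest in replicate 1 of each of the 4 groups, at 429.6, 295.5, 357.2 and 129.0 normalised counts for untreated, GSK3i, siβ-catenin and both. Replicates 2 and 3 ran from 888.2 to 1853. FOS was lowest in replicate 1 of the GSK3i groups, at 92.8 with GSK3i and 52.0 with both treatments, where replicates 2 and 3 had 420.2 to 508.9. In replicate 1 without GSK3i it had 541.5 and 453.0, above replicate 3. FOSB was lowest in replicate 1 of these groups as well, with 36.7 and 25 in replicate 1 of the GSK3i groups against 110.0 to 148.6 in the others. With the replicate number as a block, EGR1 was called lower with siβ-catenin under GSK3i in BRCA2-deficient cells (-0.60, adjusted p = 0.000222), where the fit without it gave -0.45 ± 1.08. EGR1 was at 295.5, 1502 and 1820 with GSK3i and 129.0, 1212 and 1325 with both, lower in 3 of 3 pairs.

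**Figure D5:**
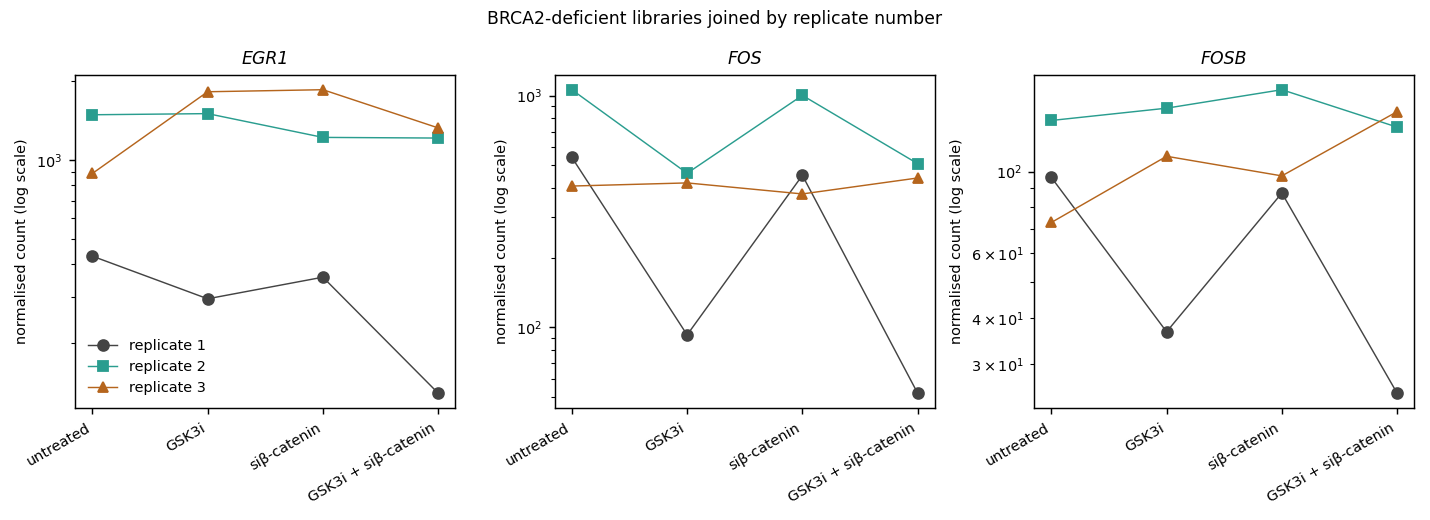
Normalised counts (log axes) of EGR1, FOS and FOSB in the 4 BRCA2-deficient groups, with lines that join libraries of the same replicate number. EGR1 is lowest in replicate 1 of each group, and FOS and FOSB are lowest there in the GSK3i groups.

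Related genes were taken from lists of other AP-1 and CREB/ATF factors, other early response genes, regulators upstream of them, and known AP-1 targets. Of 12 other AP-1 and CREB/ATF genes tested, 1 was called higher and 3 lower with GSK3i in BRCA2-proficient cells and 2 each way in BRCA2-deficient cells. For these lists the shares over all genes are those given above, 26.1% called with BRCA2 present (11.8% higher, 14.2% lower) and 25.4% with BRCA2 depleted (11.6% higher, 13.8% lower). MAFF, a small MAF protein of the same leucine-zipper class, was called lower in both (-1.70 ± 0.59 and -0.85 ± 0.27). MAFK, a close relative, was lower in BRCA2-proficient cells (-1.13 ± 0.19). BATF3, a partner of JUN proteins in immune cells, was higher in BRCA2-deficient cells (0.94 ± 0.29). The list's median log2 fold change was -0.22 and -0.07.

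Of 19 other early response genes tested with GSK3i, 8 were called lower and 0 higher in BRCA2-proficient cells (26.1% of all genes called), and 7 lower and 3 higher in BRCA2-deficient cells (25.4%). IER5L, a relative of IER2, went from 1291 ± 200.0 to 244.4 ± 37.7 normalised counts in BRCA2-proficient cells (-2.41 ± 0.18, adjusted p = 1.42e-36) and from 1192 ± 480.0 to 247.5 ± 11.6 in BRCA2-deficient cells (-2.27 ± 0.29, adjusted p = 9.1e-13). KLF2, a zinc-finger factor of quiescence, was lower too (-1.93 ± 0.23 and -2.25 ± 0.27). After siβ-catenin in BRCA2-deficient cells, 6 of 21 were called lower with GSK3i and 2 higher, against 11.5% and 8.56% of all genes, with IER5L at -1.24 ± 0.22 and KLF2 at -2.46 ± 0.26. The medians of the list were -0.56, 0.13 and -0.13 in these 3 comparisons.

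Of 19 upstream regulators tested, 1 was called higher and 2 lower with GSK3i in BRCA2-proficient cells, and 3 higher and 1 lower in BRCA2-deficient cells, against 26.1% and 25.4% of all genes called. NAB2, a corepressor and target of EGR proteins, was lower in both (-0.50 ± 0.20 and -0.66 ± 0.21), and RPS6KA1, a kinase downstream of ERK, was higher in both (0.53 ± 0.16 and 0.59 ± 0.16). NAB2 was also lower with BRCA2 depletion in untreated cells (-0.87 ± 0.24) and under GSK3i (-1.01 ± 0.19). Of 18 AP-1 target genes tested, 4 were called lower and 0 higher with GSK3i in BRCA2-proficient cells, and 5 lower and 2 higher in BRCA2-deficient cells, against 14.2% and 13.8% of all genes called lower. PLAU, the urokinase protease gene, went from 13915 ± 399.8 to 5507 ± 606.2 normalised counts in the first (-1.35 ± 0.13) and from 15705 ± 1128 to 4148 ± 770.7 in the second (-1.92 ± 0.18).

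The genes most like each member were found by the Pearson correlation of log2(normalised count + 1) over the 22 libraries, among 11606 genes with a mean of at least 100. The libraries share their treatments and replicate numbers, so these values are descriptions. Without the 2 libraries that went against their labels the JUN value below was 0.67 and the others moved by less than that one did. JUNB was most like ZHX2 and SNX33 (r = 0.94 each), IER2 most like SOCS3 (0.94) and MIDN (0.92), and FOSL2 most like LRIG1 and WDR91 (0.91 each). FOSL1 was most like CKS2 (0.96) and DNAJC9 (0.93), and IER3 most like SQSTM1 (0.92). JUND was most like LMNA (0.89), FOS most like ARID3A (0.87), EGR1 most like SRGAP2C (0.78) and JUN most like SLC25A25-AS1 (0.75). FOSB was the exception in having another member, FOS, as the gene most like it (0.85). Among the members, JUNB went with FOS (0.82), IER2 (0.80) and FOSL2 (0.73) and against FOSL1 (-0.73). EGR1 went with FOSB (0.70), FOS (0.66) and JUN (0.63).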

How the data were processed

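RNA was measured by poly(A)-enriched, strand-specific RNA-seq in 22 libraries of H1299 cells. The authors aligned reads to GRCh37 with HISAT2 (2.0.4 in the submitters' processing notes), removed duplicates with Picard and deposited raw counts of uniquely mapped reads per Ensembl gene from featureCounts (1.5.0). The strand setting and Ensembl release are not given in the sources used here. Duplicate removal lowers high counts most. A symbol was matched to 29629 identifiers (GENCODE for GRCh37). DESeq2 1.42.0 (R 4.3.3) fitted each comparison on its own groups (Wald test, no shrinkage, Benjamini-Hochberg), leaving out genes with under 10 counts in more than 3 libraries. Interactions used a single model over 8 groups. Alternatives included edgeR 4.0.16, TMM factors, no filter, a replicate block and leaving out each library. Fits were tested on simulated data. Where 3 replicate numbers were shared, deviations of same-numbered libraries correlated at 0.14 to 0.87 in 7 comparisons, so the numbers were taken to pair the libraries there. Replicate 2 was not most like its own number for GSK3i in BRCA2-deficient cells or for BRCA2 depletion under GSK3i. Where 2 numbers were shared, the correlations ran from -0.42 to 0.26, and pairing was not shown. The study describes independent experiments, and p-values measure the spread between these libraries. The genes named were the 10 members, label checks, and from each list and comparison the 2 called genes of largest change with a mean of at least 100. Some genes that this rule names are not reported here. The members and lists were chosen with earlier results of these data known.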

Additional observations from a re-analysis of the deposited data

Results flagged for a closer look

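In BRCA2-proficient cells the response to GSK3i differed with siβ-catenin for 3 of the 10 genes in a test of the difference itself. The interaction in DESeq2 was 2.49 ± 0.45 for JUNB (adjusted p = 1.09e-05), 4.80 ± 1.22 for FOS (adjusted p = 0.00267) and 1.17 ± 0.28 for IER2 (adjusted p = 0.00168), on the log2 scale, against 11.7% of all genes called and 6.22% called higher. After siβ-catenin the log2 difference with GSK3i was 0.85 ± 0.36 for JUNB and 1.22 ± 0.41 for FOS, neither of them called, against falls with control siRNA. Each of the siβ-catenin groups behind them held a library that went against its label for GSK3i. Without both libraries the interaction was 1.88 for JUNB (adjusted p = 0.00363), 4.22 for FOS (adjusted p = 0.104) and 0.89 for IER2 (adjusted p = 0.035), with siβ-catenin replicate 3, which had an intermediate level of the GSK3i-lowered genes, as the only library left of its group. FOS was also not called without untreated replicate 3 (3.13, adjusted p = 0.122), and FOSL2 was called without siβ-catenin replicate 3 (1.42, adjusted p = 0.000127). In BRCA2-deficient cells the same interaction was 0.20 ± 0.40, 0.18 ± 1.08 and 0.25 ± 0.25 for these genes.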

How the results depend on the processing

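Of 2120 recomputed values of single genes, 2057 stayed on the same side of the thresholds, 28 lost a call, 35 gained one and 0 called values changed sign. Among the 2057, 160 values that were not called changed sign. Of 212 recomputed counts, 197 stayed within 1.5 times the reported count. The replicate numbers pair the libraries where 3 are shared. With the replicate block, 1 gene was called for siβ-catenin added to GSK3i with BRCA2 present (JUNB), 1 with BRCA2 depleted (EGR1) and 5 for the interaction of GSK3i with siβ-catenin in BRCA2-proficient cells (FOSL2 and EGR1 added), and beyond those named in the report it changed no other call. With edgeR, 0 were called for siβ-catenin without GSK3i in BRCA2-proficient cells, where edgeR called 1 of the 17654 genes tested. A single model over all groups called 3 for BRCA2 depletion under siβ-catenin. Leaving out the 2 libraries that went against their labels was a choice made after seeing the data. For GSK3i after siβ-catenin in BRCA2-proficient cells it left 1 library in a group, so calls are not counted there. The causes were not tested. A group left with 1 library was assumed to vary like the others. Leaving out each library in turn gave 4 to 6 called genes for GSK3i in BRCA2-proficient cells, 3 to 3 in BRCA2-deficient cells and 3 to 5 after siβ-catenin in BRCA2-deficient cells. The 3 in BRCA2-deficient cells were not always the same genes. Without untreated replicate 3 or GSK3i replicate 2, FOSL1 was called higher and FOSL2 was no longer called. Other counts from leaving out each library follow. They were 0 to 1 for siβ-catenin under GSK3i in each background, and 1 to 4 for siβ-catenin without GSK3i in BRCA2-proficient cells. For BRCA2 depletion they were 0 to 2 in untreated cells, 0 to 2 under GSK3i, 3 to 5 under siβ-catenin and 0 to 2 under both. For the interaction in BRCA2-proficient cells they were 2 to 4. FOS, FOSB and EGR1 were limited by their spread within groups more than by counting, since their lowest counts were 52, 25 and 129.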
